A study of Homo sapiens with 8 samples.

Results

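The genes described here encode the proteins of the cytosolic ribosome, measured in cultured keratinocytes under psoriasis-like cytokine stimulation. Members were chosen by name: protein-coding genes whose NCBI symbol is RPL or RPS with a number, or RPLP0, RPLP1, RPLP2 or RPSA, leaving out the S6 kinases, paralogs whose names end in L or L1, and mitochondrial ribosomal proteins. The rule found 83 of the 17131 genes in the table. Of these, 79 are single ribosomal protein genes, 46 of the large subunit and 33 of the small subunit, and these are called members from here on. The other 4 (RPS19BP1, which encodes a protein that binds RPS19, and the readthrough loci RPS10-NUDT3, RPL17-C18orf32 and RPL36A-HNRNPH2) matched the name rule without being single ribosomal protein genes. None of these 4 passed the test described below, with log2 fold changes of 0.29, 0.35, -0.09 and -0.20.

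The cells were HaCaT, an established line of wild-type human keratinocytes, the main cells of the epidermis. All cultures received M5, a cocktail of oncostatin M, TNF-α, IL-1α, IL-17A and IL-22, cytokines of psoriatic skin, for 24 h, with or without OTS514, an inhibitor of the mitotic kinase TOPK. By the study's methods the inhibitor was given before M5 and then together with it. The titles M5_O5 and M5 were each carried by 4 libraries. Title and treatment entry contradict each other: the entry gives no treatment for M5_O5 and the TOPK inhibitor for M5, so groups are named by title, every direction is M5_O5 relative to M5, and all directions exchange if the entry is right. Cultures without M5 were not analysed here, and nothing says whether the 4 libraries of a title came from separate cultures, so p-values measure the spread between these libraries, which may be technical.

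Library totals ranged from 13708055 estimated counts (M5 replicate 1) to 16922693, and 12434 genes had enough counts to be tested. All 10 keratinocyte markers were detected, with summed levels of 20411 to 22823 CPM (read counts relative to the library total, scaled by TMM) in M5_O5 and 24066 to 28722 CPM in M5. Of these 10, 6 were lower in M5_O5 (60%, beside 17.6% of all genes tested) and none was higher at an adjusted p under 0.05. All 10 lay above 100 CPM in every library. Of the 2029 genes outside the members with a mean of at least 100 CPM, 878 were lower and 174 higher, so falls were common at this level. The part of these markers in the results for ribosomal genes was not tested. Fibroblast markers summed to 32.98 to 36.7 CPM in M5_O5 and 42.9 to 58.1 CPM in M5, nearly all from COL1A1. Melanocyte markers stayed near 0, leukocyte markers summed to 31.2 to 39.9 CPM, nearly all from CD14, and PTPRC and CD79A had no counts.

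Each ribosome holds a large and a small subunit, and with few exceptions a single copy of every ribosomal protein. The small subunit reads the mRNA, and the large subunit joins amino acids and releases the chain through its exit tunnel. Ribosomal protein mRNAs are among the most abundant of dividing cells, and most begin with a C followed by a run of pyrimidines (C or T in DNA letters), the TOP tract, through which mTORC1 and LARP1 control their translation and stability. Bulk RNA sequencing measures the mRNA level and not its translation, and fewer cells of a type and less RNA per cell cannot be told apart in it.

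To show this shared element in the members on which the comparison turned, the first bases of 5 genes that passed the test are printed from RefSeq start sites (GRCh38.p14), each from 10 bases before the annotated start to base 20 of the transcript, on the coding strand from 5′ to 3′. Capitals mark the C and the unbroken pyrimidines that follow from the annotated start. The windows are chr3:39406710-39406739 on the plus strand for RPSA, chr12:56116623-56116652 on the plus strand for RPL41, chr19:55385922-55385951 on the plus strand for RPL28, chrX:119791611-119791640 on the minus strand for RPL39 and chr19:39435930-39435959 on the minus strand for RPS16, all spanning the edge of the promoter and the first exon.
RPSA: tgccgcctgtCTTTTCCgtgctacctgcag
RPL41: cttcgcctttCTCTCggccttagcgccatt
RPL28: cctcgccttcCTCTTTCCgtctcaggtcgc
RPL39: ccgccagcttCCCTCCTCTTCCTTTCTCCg
RPS16: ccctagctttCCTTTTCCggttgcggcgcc
RPS2 and RPL5 also passed the test. A C at the annotated start with at least 4 pyrimidines after it was found in 47 of the 64 members with a start window (73.4%), against 6.68% of all protein-coding genes of the same table and 8.7% of mitochondrial ribosomal protein genes. Only the coding strand at the annotated start was searched, so the absence of a tract says only that these letters are not at that position.

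Most members differed little between the titles. Of the 77 members tested, 8 passed an adjusted p under 0.05 (10.4%), against 37.1% of all genes tested (edgeR quasi-likelihood test, Benjamini-Hochberg adjustment over 12434 genes). There were 3 higher in M5_O5 (RPSA, RPS2 and RPL5), where 19.5% of all genes were higher, and 5 lower (RPL41, RPL28, RPL39 and RPS16 among them), where 17.6% of all genes were lower. No member reached a 2-fold difference, which 3.2% of all genes did while passing the test. At an unadjusted p under 0.05 there were 16 members, and 46.2% of all genes.

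The members' log2 fold changes ran from -0.34 to 0.30, with a median of -0.03 and an SD of 0.125, beside a median of 0.01 and an SD of 0.393 over all genes tested. Large subunit genes had a median of -0.05, with 1 higher and 3 lower of 46, and small subunit genes a median of -0.005, with 2 higher and 2 lower of 31. The 95% confidence interval of the fold change lay within 0.5 either side of 0 (log2) for 74 of the 77, reaching a median of 0.16 to either side. The widest was that of RPS29, a small zinc-binding protein of the small subunit, reaching 0.47 to either side. RPS4Y1 and RPS4Y2, copies of RPS4X, had under 10 counts in all libraries together and were not tested.

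**Figure D1:**
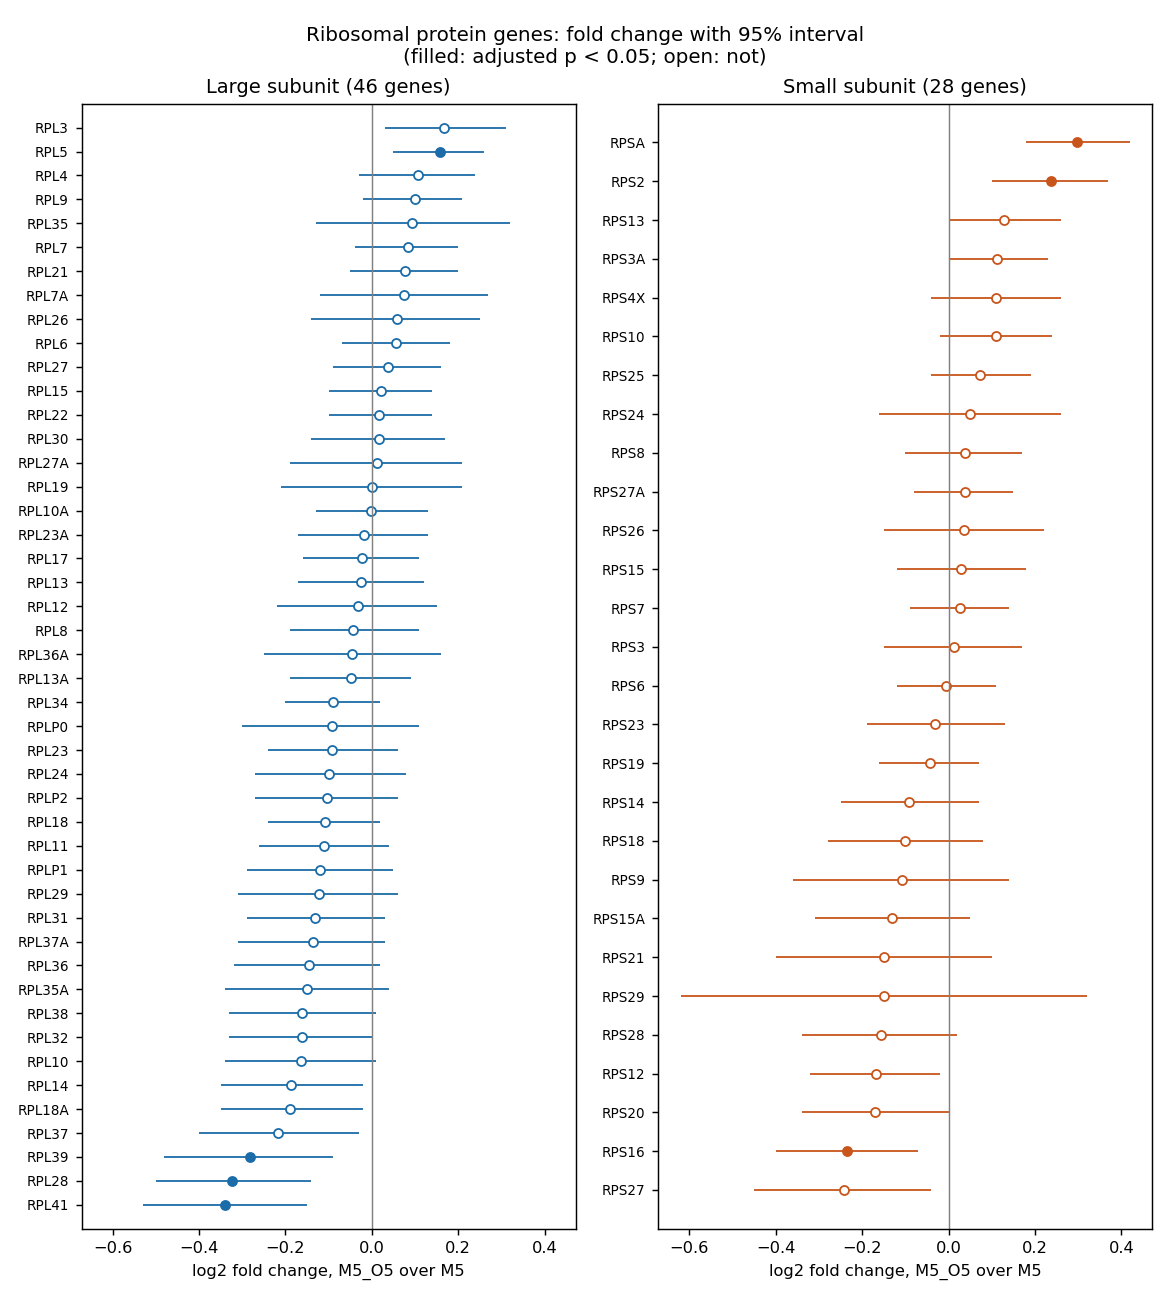
Log2 fold change (M5_O5 over M5, x axis) of 74 ribosomal protein genes (y axis), large subunit left and small subunit right. Points are edgeR estimates with 95% confidence intervals as bars, filled where the adjusted p was under 0.05; estimates lie between -0.34 and 0.30 and 7 are filled.

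The sign of the members' median depended on the scaling, since it was 0.09 when libraries were scaled by their totals alone, which also moved the median of all genes to 0.13. Under that scaling 20 members were higher and 2 lower, beside 3858 and 1008 of all genes. Relative to the median of all genes the members stood 0.04 lower with TMM or library totals, 0.02 lower with limma on log2(TPM + 1), and 0.13 higher once the trend of fold change with expression level was removed. M5 replicate 1 weighed on the calls: without it 3 members were higher and 27 lower, and the median was -0.09. Of all 12552 genes tested in that fit, 2872 were higher and 2504 lower.

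Among the 3 members that were higher, RPSA encodes a small subunit protein also known as the laminin receptor precursor. Its level was 353, 380, 389 and 359 CPM in the M5_O5 libraries 1 to 4 and 287, 321, 301 and 296 CPM in the M5 libraries 1 to 4. Every M5_O5 library lay above every M5 library, and the level rose by 22.9% (log2 fold change 0.30 ± 0.06 SE, edgeR adjusted p = 0.000939).

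RPS2 encodes a protein at the mRNA entry of the small subunit. It had 1291, 1221, 1275 and 1133 CPM in M5_O5 and 966, 1098, 1082 and 1033 CPM in M5. The groups did not overlap, with M5 replicate 1 the lowest, and the level rose by 17.8% (log2 fold change 0.24 ± 0.06 SE, edgeR adjusted p = 0.00929).

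RPL5, which carries a small ribosomal RNA into the large subunit and can bind the p53 regulator MDM2, had 408, 407, 403 and 421 CPM in M5_O5 and 362, 362, 382 and 364 CPM in M5. The groups were apart here too, and the level rose by 11.5% (log2 fold change 0.16 ± 0.05 SE, edgeR adjusted p = 0.0214). With the trend of fold change with transcript length removed, RPL5 stood at 0.07 and no longer passed, and it also missed the threshold without M5_O5 replicate 4 (0.14) or without M5 replicate 2 or 4 (0.15). RPSA and RPS2 passed in all 20 alternative fits.

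Among the 5 members that were lower, RPL41 encodes the smallest ribosomal protein, a short basic peptide of the large subunit, from a coding sequence of 75 bases. Its level was 362, 380, 423 and 365 CPM in M5_O5 and 395, 548, 530 and 463 CPM in M5. The groups overlapped, because M5 replicate 1 lay below M5_O5 replicate 3, and the level fell by 21.0% (log2 fold change -0.34 ± 0.09 SE, edgeR adjusted p = 0.00867). It was -0.18 with the expression trend removed and -0.20 with limma on log2(TPM + 1), and passed in neither.

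RPL28, a protein of the large subunit, had 221, 221, 272 and 226 CPM in M5_O5 and 252, 320, 315 and 289 CPM in M5. M5_O5 replicate 3 lay above M5 replicate 1, and the other libraries were apart by title. The level fell by 20.1% (log2 fold change -0.32 ± 0.08 SE, edgeR adjusted p = 0.00776). It was -0.19 and did not pass with the expression trend removed.

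RPL39, a small protein that lines the exit tunnel, had 213, 227, 254 and 241 CPM in M5_O5 and 225, 297, 321 and 291 CPM in M5. Again M5 replicate 1 lay among the M5_O5 libraries, and the level fell by 17.7% (log2 fold change -0.28 ± 0.09 SE, edgeR adjusted p = 0.0256). The call was lost with library totals as the only scaling (-0.16), limma on either TPM scale (-0.11), the expression trend removed (-0.15), and in 5 of 8 fits that left out a library (M5_O5 replicate 1 or 2, M5 replicate 2, 3 or 4; -0.27 to -0.22).

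RPS16 of the small subunit, whose tail contacts a tRNA, had 149, 155, 172 and 141 CPM in M5_O5 and 157, 193, 194 and 180 CPM in M5. Here too M5 replicate 1 was the only M5 library within the M5_O5 range. The level fell by 15.04% (log2 fold change -0.24 ± 0.08 SE, edgeR adjusted p = 0.0244). RPS16 lost its call with library totals (-0.12), limma (-0.11) and the expression trend removed (-0.12), and in 6 of 8 fits without a library, keeping it without M5_O5 replicate 3 or M5 replicate 1 (lost values -0.24 to -0.19).

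**Figure D2:**
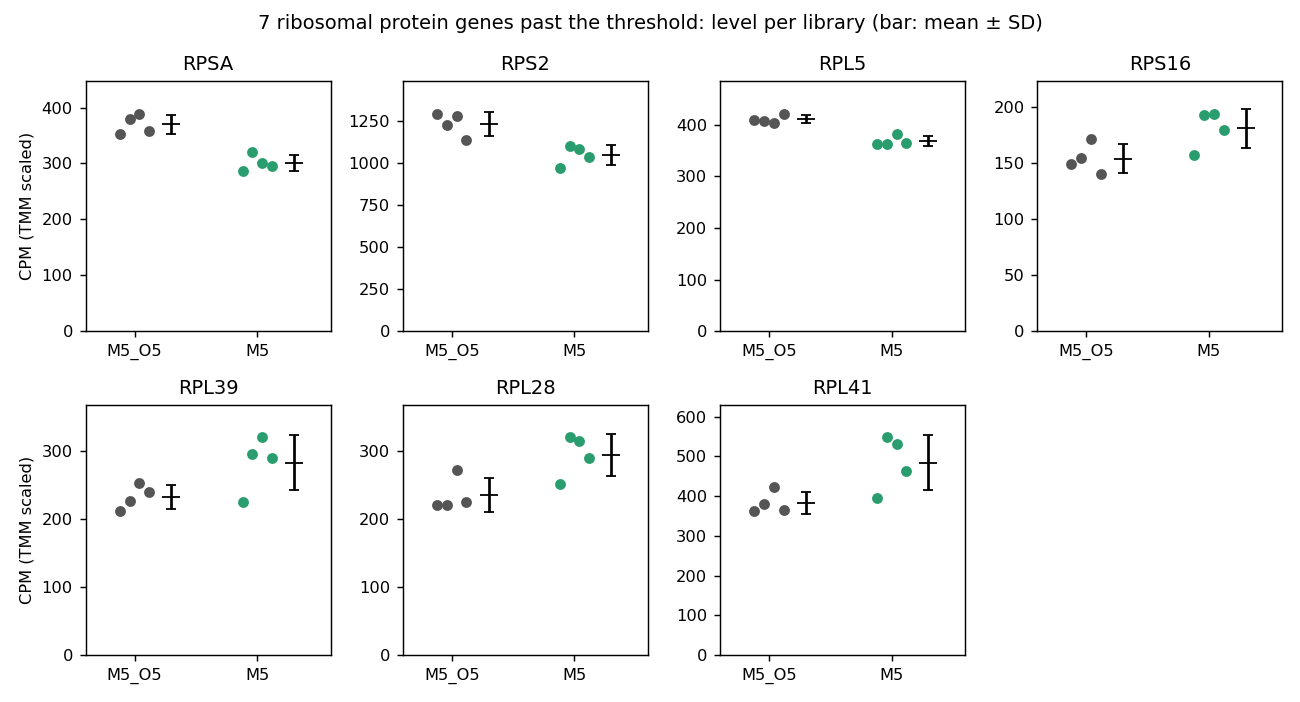
Level in CPM (TMM scaled, y axis from 0) of 7 members past the threshold, by title (x axis). Points are libraries and bars the mean ± SD of 4; RPSA, RPS2 and RPL5 are apart by title, while in the other 4 M5 replicate 1, the leftmost M5 point, falls within the M5_O5 range.

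The libraries of the titles did not overlap for 5 members (6.49%), RPSA, RPS2, RPL3, RPL5 and RPL9, against 33.6% of all genes tested. All 5 were higher in M5_O5, where 17.8% of all genes were, and none was lower without overlap, where 15.8% of all genes were. RPL3, which reaches toward the peptidyl transferase centre of the large subunit, had 825, 891, 915 and 832 CPM in M5_O5 and 694, 812, 824 and 753 CPM in M5, the highest M5 library lying just under the lowest M5_O5 library (log2 fold change 0.17 ± 0.07 SE, edgeR adjusted p = 0.0576). RPL9 had a log2 fold change of 0.10. The remaining genes among the 5 largest differences in each direction were RPS13 of the small subunit, with a log2 fold change of 0.13, and RPS27, a zinc-binding protein of the small subunit, with -0.24, and neither passed the test.

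By role in the ribosome, 1 member or none passed the test in every set. Over all members tested 10.4% passed, and over all genes tested 37.1% (19.5% higher and 17.6% lower). The P stalk, which recruits the elongation factors, is made of RPLP0, RPLP1 and RPLP2, and none of the 3 passed, with log2 fold changes of -0.09, -0.12 and -0.10. RPLP0, often used as a reference gene in RT-PCR, had 1152, 1376, 1400 and 1187 CPM in M5_O5 and 1157, 1601, 1256 and 1435 CPM in M5. These ranges overlapped widely, and the 95% interval of its log2 fold change was -0.30 to 0.11.

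Of the 8 members at the exit tunnel and its mouth (RPL4, RPL17, RPL19, RPL23A, RPL26, RPL31, RPL35 and RPL39), RPL39 was lower and none was higher, and their fold changes ran from -0.28 to 0.11 (log2). None of the 5 members near the peptidyl transferase centre and the tRNA sites (RPL3, RPL8, RPL10, RPL10A and RPL36A) passed, with a range of -0.16 to 0.17. Of 8 members at mRNA entry, exit and decoding (among them RPS2, RPS3, RPS14, RPS15, RPS23, RPS26 and RPS28), RPS2 was higher and none was lower. The range was -0.16 to 0.24. Each set of 8 had 12.5% called, beside 10.4% of all members and 37.1% of all genes.

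RPL5, RPL11 and RPL23 can bind MDM2 when ribosome assembly is disturbed. RPL5 was higher, and the log2 fold changes of the 3 ran from -0.11 to 0.16. Of 6 members with known roles outside the ribosome (RPS3, RPS6, RPS27A, RPL13A, RPL22 and RPSA), RPSA was higher and none was lower. Of 19 members in which variants cause Diamond-Blackfan anemia, RPL5 was higher and none was lower, with a median of 0.02. These 2 sets had 16.7% and 5.26% called, beside 37.1% of all genes. FAU, which encodes a ribosomal protein fused to a ubiquitin-like protein, and RACK1, a scaffold on the small subunit, belong to the ribosome but not to the name rule. Neither passed, with log2 fold changes of -0.10 and -0.19.

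The summed counts of all members made up 3.33%, 3.35%, 3.52% and 3.31% of the M5_O5 libraries and 2.90%, 3.27%, 3.29% and 3.14% of the M5 libraries. The means were 3.38% ± 0.0968 and 3.15% ± 0.182 (SD, n = 4), and the titles did not overlap, although M5 replicate 3 and M5_O5 replicate 4 lay close. The share of deposited TPM (a unit that divides by transcript length and gives each library the same sum) was 12.8% ± 0.325 in M5_O5 and 12.1% ± 0.267 in M5. On the same unscaled counts the large to small subunit ratio was 1.83 to 1.94 in M5_O5 and 1.89 to 2.001 in M5, with overlap. The TMM factors, which enter the CPM values and not these shares, were 1.03 to 1.05 in M5_O5 and 0.938 to 0.9999 in M5. They were higher in M5_O5 without overlap, as the shares of counts were. With TMM scaling the members' median log2 fold change was -0.03, so the higher share does not show a higher scaled level.

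**Figure D3:**
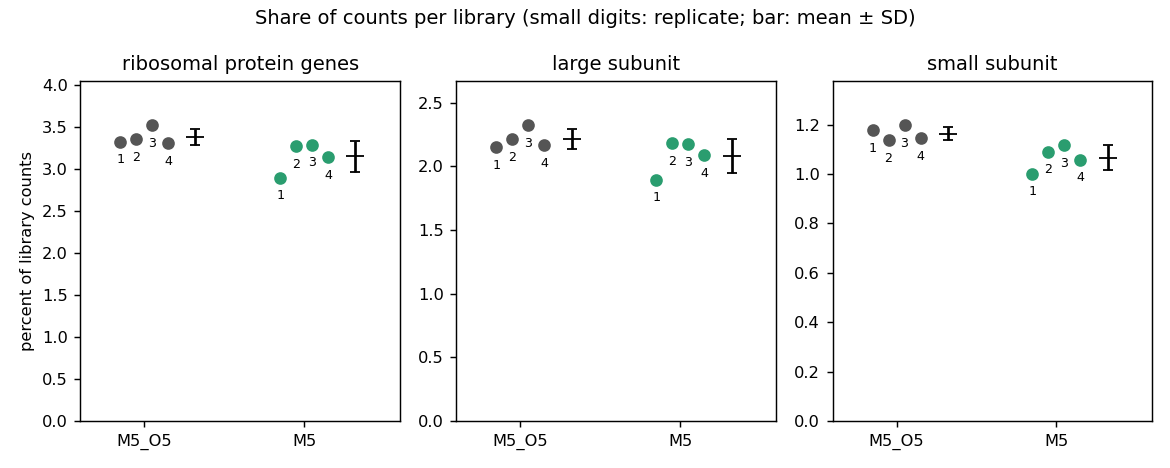
Percent of each library's counts held by all members, by the large subunit and by the small subunit (y axes from 0), by title (x axis). Points are libraries with their replicate number and bars the mean ± SD of 4; for all members the M5_O5 libraries lie between 3.31% and 3.52% and the M5 libraries between 2.90% and 3.29%.

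Within the members, direction was set beside length. The members were ordered by coding length (the coding bases of the principal GENCODE transcript), a split chosen after the fold changes were seen and therefore not tested. Of the 27 shortest, 75 to 405 bases, 2 were lower and none higher, with a median log2 fold change of -0.14. Of the 24 in the middle, 408 to 564 bases, 3 were lower and none higher, with a median of -0.04. Of the 26 longest, 576 to 1281 bases, 3 were higher and none lower, with a median of 0.02. Over all members tested 10.4% passed, and over all genes tested 37.1%.

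Across the 77 members Spearman's rho between coding length and log2 fold change was 0.54, where all points share the same 8 libraries. It was 0.23 across 77 mitochondrial ribosomal protein genes and -0.10 across 11979 genes with a coding length, and for the effective transcript length the authors' processing used, it was 0.02 across the members. Taking the median deviation of the longest minus that of the shortest members in each library (log2), the values were 0.09, 0.16, 0.07 and 0.04 in M5_O5 and 0.02, -0.08, -0.19 and -0.04 in M5. All M5_O5 values lay above all M5 values, with M5_O5 replicate 4 close to M5 replicate 1. As the split was chosen after the fold changes of these same libraries were seen, this restates that pattern and adds no separate evidence. Of the start-site groups, 46 tested members with the tract had 1 higher and 4 lower (median -0.09), and 16 without it had none in either direction (median 0.03). The 15 tested members with no start window held 2 higher, RPS2 and RPL5, and 1 lower (median -0.02), so the calls cannot be read as confined to genes with the tract. These few calls per group stand beside 10.4% called over all members and 37.1% over all genes. Whether length, the tract or the level of these genes plays a part was not tested.

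**Figure D4:**
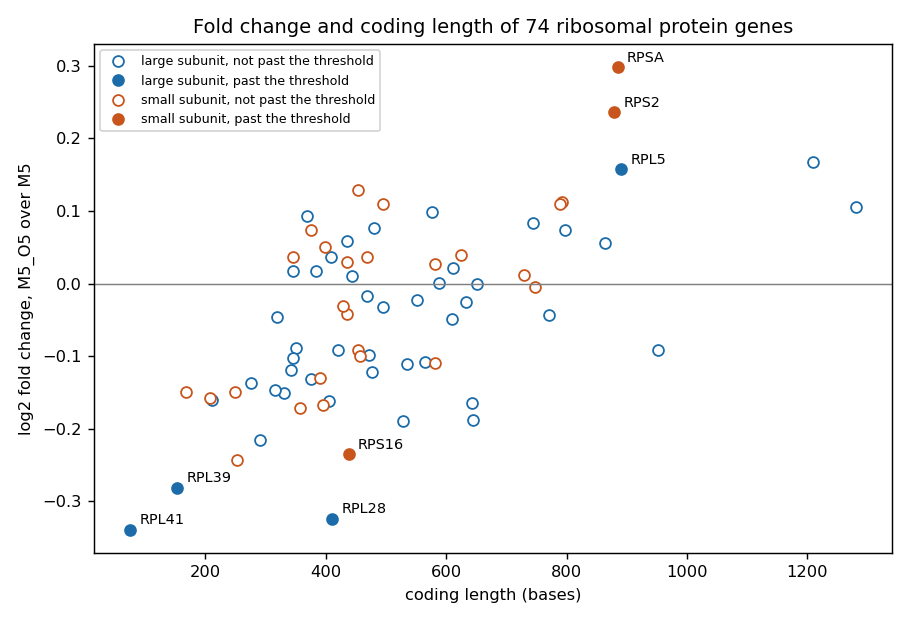
Log2 fold change (M5_O5 over M5, y axis) against coding length in bases (x axis) of 74 ribosomal protein genes, coloured by subunit and filled where the adjusted p was under 0.05. The 4 filled genes below 0 have up to 438 coding bases and the 3 above 0 at least 879.

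Direction was also counted by level over the whole table. Over all 12434 genes tested, 2420 were higher (19.5%) and 2192 lower (17.6%). Of 2029 genes outside the members with a mean of at least 100 CPM, 174 were higher and 878 lower, with a median log2 fold change of -0.14. Of the 74 members past the same minimum, 3 were higher and 5 lower, with a median of -0.03.

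Between members, levels were compared per length, on the deposited TPM. RPS27 was the highest, with a mean of 7434 TPM and library values of 5883 to 8145. RPL39 (4589.6 TPM), RPS18 (4286 TPM) and RPL7A (4065 TPM) were among those that followed. RPS27 lay above all libraries of these 3, whose own ranges overlapped. At the other end were RPL14 (40.9 TPM), RPL37 (45.7 TPM), RPL32 (130.4 TPM), RPS23 (138 TPM) and RPL37A (145 TPM). RPL14 and RPL37 overlapped each other and lay below the other 3.

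The mean TPM was at least 1000 for 48 of the 77 members, and the highest was 182 times the lowest. This order leaned on the length assigned to each gene, as Spearman's rho between mean TPM and effective length was -0.80 across the 77. The effective length was 7254 bases for RPL37, whose coding length is 291 bases, and 30.4 bases for RPS29, and it exceeded 3 times the coding length in 14 members and was under it in 46. Per kilobase of coding length the order changed (rho 0.46 with the TPM order): RPL41 was highest with 5777 CPM per kilobase, followed by RPLP1 with 1952 and RPL7A with 1849, RPL14 was lowest with 273, and the highest was 21.1 times the lowest. RPL14, a protein of the large subunit, was thus lowest on both scales.

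Among members with more than 1 transcript, 11 had at least 2 that each held 10% or more of the gene's estimated counts (RPL10, RPL11, RPL17, RPL28, RPL31, RPL38, RPLP0, RPS3, RPS9, RPS15A and RPS19). The share of a transcript was apart by title in 1 of these 11 members, RPL10, in 2 of the 23 transcripts compared. These 2 mirror each other within 1 gene and are not separate events. How often transcript shares were apart over all genes was not counted. RPL10 encodes a protein near the tRNA sites that joins the large subunit late in its assembly. Its transcript NM_001303624 held 20.2%, 23.5%, 21.3% and 19.6% in M5_O5 and 28.4%, 27.9%, 26.9% and 27.9% in M5. The main transcript NM_006013 held the reverse, 75.5% ± 1.6 in M5_O5 and 69.3% ± 0.51 in M5 (SD, n = 4), and these are estimated shares of overlapping transcripts, described without a test.

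The genes that make ribosomes were read from the same fit. Of 41 ribosome assembly genes, 28 were higher in M5_O5 and none was lower (68.3%, beside 19.5% of all genes that were higher), with a median log2 fold change of 0.34. The largest rise was in NHP2, a core protein of the particles that pseudouridylate ribosomal RNA, with 21.3, 15.3, 17.1 and 17.0 CPM in M5_O5 and 10.95, 9.47, 9.94 and 10.03 CPM in M5. All M5_O5 libraries were higher (log2 fold change 0.81 ± 0.11 SE, edgeR adjusted p = 6e-05).

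Of the 14 RNA polymerase I genes, which transcribe ribosomal RNA, 5 were higher and 1 was lower (42.9% called, near the 37.1% of all genes), with a median of 0.16. POLR1B, the second largest subunit of the enzyme, had 19.0, 20.2, 19.1 and 19.8 CPM in M5_O5 and 11.3, 10.4, 8.49 and 9.53 CPM in M5, without overlap (log2 fold change 0.98 ± 0.09 SE). POLR1D, a subunit shared with RNA polymerase III, was lower (log2 fold change -0.27 ± 0.06 SE).

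Mitochondrial ribosomal proteins, which are encoded in the nucleus and build the ribosome of the mitochondrion, were higher in 26 of 77 and lower in 1 (35.1% called, near the 37.1% of all genes, of which 19.5% were higher and 17.6% lower), with a median of 0.19. MRPL40 had the largest rise (log2 fold change 0.60 ± 0.11 SE), and MRPS6 was the gene that fell (log2 fold change -0.37 ± 0.11 SE). All 4 M5_O5 libraries lay above all 4 M5 libraries in 29 of the 77, against 5 of the 77 cytosolic members and 17.8% of all genes. None lay below without overlap, where 15.8% of all genes did. Counted in either direction, 37.7% did not overlap, near the 33.6% of all genes. The mitochondrial small subunit had 14 higher and 1 lower of 28 (53.6% called). The mitochondrial large subunit had 12 higher and none lower of 49 (24.5% called, beside 37.1% of all genes).

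A list of elongation and initiation factors and other genes known for TOP messages, NAP1L1 and TPT1 among them, had 2 of 19 higher and 2 lower. This was 21.1% called, against 37.1% of all genes, with a median of -0.05. The tract was not looked up gene by gene in this list. NAP1L1, a histone chaperone, was the largest rise in this list (log2 fold change 0.42 ± 0.06 SE). TPT1, an abundant translationally controlled protein, was the largest fall, with 2910, 2868, 2689 and 2918 CPM in M5_O5 and 3485, 3760, 3862 and 3790 CPM in M5. The groups were far apart (log2 fold change -0.39 ± 0.06 SE, edgeR adjusted p = 0.000265).

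Of 19 genes of mTORC1 and TOP message control, 3 were higher and 3 lower (31.6% called, near the background), with a median of 0.00. EIF4EBP1 and EIF4EBP2, which encode inhibitors of the cap-binding protein eIF4E, moved in opposite directions. EIF4EBP1 had 20.5, 22.3, 24.2 and 22.3 CPM in M5_O5 and 13.8, 17.4, 16.5 and 16.5 CPM in M5 (log2 fold change 0.48 ± 0.09 SE), and EIF4EBP2 had 146, 138, 130 and 145 CPM in M5_O5 and 197, 194, 197 and 194 CPM in M5 (log2 fold change -0.49 ± 0.05 SE). Neither pair of groups overlapped.

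Of the 6 tested paralogs of members, 2 were higher and 1 was lower (50% called, beside 37.1% of all genes). RPL22L1, the paralog of RPL22, had 5.70, 4.997, 4.39 and 5.41 CPM in M5_O5 and 3.14, 2.48, 3.29 and 2.24 CPM in M5, apart by title (log2 fold change 0.88 ± 0.16 SE, edgeR adjusted p = 0.000644). RPL22 itself had 183 to 196 CPM in M5_O5 and 179 to 206 CPM in M5, with overlap. RPL36AL, the paralog of RPL36A, was lower (log2 fold change -0.31 ± 0.07 SE).

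**Figure D5:**
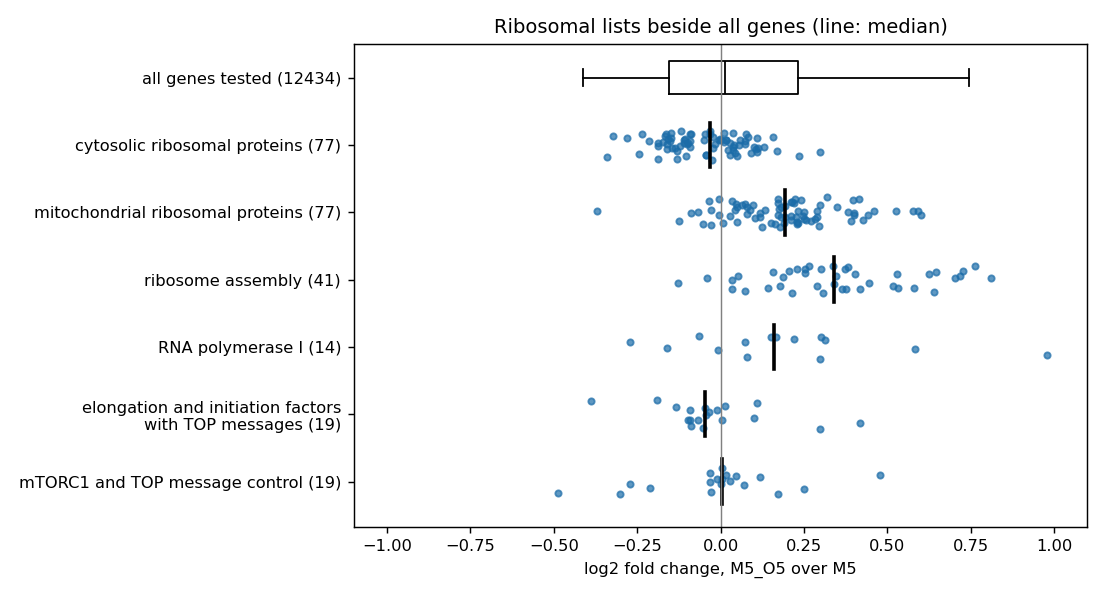
Log2 fold change (M5_O5 over M5, x axis) of the genes of each list (y axis, number of genes in brackets). Points are genes and thick lines medians, and the box shows the quartiles of all genes tested with whiskers at percentiles 5 and 95; cytosolic ribosomal proteins centre at -0.03, mitochondrial ones at 0.19 and ribosome assembly genes at 0.34.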

How the data were processed

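The authors deposited, per transcript and library, an estimated count that was not normalized, with TPM and FPKM. The study names HISAT2 and StringTie, while the submitters' processing notes name HISAT2 2.1.0, Bowtie2 2.2.5, RSEM 1.2.8 and a mouse build (mm10) for these human transcripts, so the build behind the values is unclear and no count was tied to coordinates. Further columns hold the authors' group means and comparisons and were not used. Estimated counts of 86639 transcripts, 4181 of them further placements, were summed per Entrez gene and rounded. A RefSeq gene table (GRCh38.p14) gave symbols for 17072 of 17131 genes.

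Genes kept by filterByExpr were scaled by TMM and tested in a single fit with edgeR 4.0.16 (quasi-likelihood, Benjamini-Hochberg adjustment, R 4.3.3), which was checked on simulated data. Ribosomal protein genes have many processed pseudogenes, and how reads shared with them were assigned is not given in the sources used here. Levels are uncertain to that extent, and RPS9, RPS18, RPL7A and RPS25 had further placements. Values of a few ribosomal protein genes are not reported here and they are left out of the plots of single genes, but all tested members enter the counts and medians. Coding lengths came from GENCODE 29.

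Members and gene lists were chosen with earlier results of these data known. Named genes were the role sets, the 5 largest rises and falls, the 5 highest and lowest TPM, members with several transcripts and, in each further list, the largest called rise and fall. Single features outside this rule, such as RPL9, RPS29 and were named after their values were seen. Replicates of a title differed by more than counting noise (chi-square per gene 2.01 to 16.25), so none was merged as a duplicate library; this does not show separate cultures. Results were recomputed with DESeq2 1.42.0, limma 3.58.1 on log2(TPM + 1) and log2(TPM + 0.1), other scalings and filters, removed trends, a replicate block, and leaving out each library.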

Additional observations from a re-analysis of the deposited data

Results flagged for a closer look

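Of 36 groups of 4 libraries of the genes followed here, 2 held a library far from the other 3 (Dixon's test at 95%), where chance gives about 1.8 groups. RPL28 had 272.3 CPM in M5_O5 replicate 3 and 220.7 to 225.5 CPM in the other M5_O5 libraries. RPL5 had 382.4 CPM in M5 replicate 3 and 361.8 to 363.7 CPM in the others.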

How the results depend on the processing

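The 7 members named as past the threshold kept their direction under all 20 alternatives. All 8 that passed did so again with RLE scaling, DESeq2, TMM without the members, no filter, a minimum of 10 counts, only the main placement of each transcript and the replicate block, and 4 to 8 of them passed when a library was left out. Of the 8, 5 passed with library size as the only scaling, 4 with limma on log2(TPM + 1), 5 on log2(TPM + 0.1), 3 with the expression trend removed and 7 with the transcript length trend removed. Counts of members higher and lower were 20 and 2 with library size as the only scaling, 19 and 1 with limma on log2(TPM + 1), 19 and 2 on log2(TPM + 0.1), 24 and 0 with the expression trend removed, 2 and 16 with the transcript length trend removed, and 3 and 8 with DESeq2, and both were 0 for a 2-fold rule. Leaving out a library gave 2 to 4 higher and 2 to 27 lower: 27 without M5 replicate 1, 3 without M5_O5 replicate 4, and 2 without M5_O5 replicate 2 or M5 replicate 2, 3 or 4. Of all 12434 genes tested, 2022 were higher and 1822 lower with the expression trend removed, and 2279 and 2332 with the transcript length trend removed. With DESeq2 2127 were higher and 2355 lower, and without M5 replicate 1 2872 and 2504 of 12552. The causes were not tested.

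The members' median log2 fold change was 0.086 with library size, 0.10 with limma on either TPM scale and 0.13 with the expression trend removed (all genes -0.005), against -0.09 to -0.01 without a library. The large minus small subunit difference of medians, -0.04, kept its sign; most of its alternatives were added after seeing the data. The difference in summed share, 0.226 percentage points of counts, was 0.14 to 0.27 without a library and 0.74 on TPM. For all genes, 3858 were higher and 1008 lower with library size, 761 and 768 lower with limma, and 357 higher and 41 lower by the 2-fold rule. Mitochondrial ribosomal proteins were higher in 50 with library size, 45 and 46 with limma, 16 with the length trend removed, 0 by the 2-fold rule and 15 to 35 without a library (15 without M5 replicate 4), and the single lower gene was lost (0) with library size, limma and the 2-fold rule.

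Among the 15 named genes followed across the 20 alternatives, directions reversed only in genes that did not pass. With library size, limma on both scales and the expression trend removed, log2 fold changes were 0.019, 0.036, 0.036 and 0.001 for FAU, 0.027, 0.037, 0.037 and 0.10 for RPLP0, and 0.015, 0.041, 0.041 and 0.025 for RPLP2. RPLP1 gave 0.011 with limma on both scales and 0.053 with the expression trend removed.

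Same-numbered libraries had correlated deviations of 0.209, 0.099, -0.004 and 0.013. M5_O5 replicates 1 and 2 correlated best with the M5 library of their own number. M5_O5 replicate 3 correlated best with M5 replicate 2 (0.206), and M5_O5 replicate 4 with M5 replicate 1 (0.131). These values do not settle whether the numbers pair the libraries. With the replicate block 5 members were higher and 15 lower, and the median was -0.03. Of all genes, 2703 were higher and 2552 lower in that fit. The precision is limited by 4 libraries per title.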
